A study of Mus musculus with 9 samples.

Results

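The enzymes that break down and build proline, with the enzymes that join proline to glutamate, glutamine and aspartate, were followed in brown adipose tissue (BAT) of mice without growth hormone releasing hormone (GHRH). The 8 genes, Prodh, Aldh4a1, Pycr1, Aldh18a1, Oat, Glud1, Glul and Got1, were listed by name for their place in the pathway, with earlier results of these data known, and were matched by exact symbol among the 24356 genes of each library. All 8 had a value above 0 in every library, as did 14675 genes in total, and these 14675 were the genes tested. Values are FPKM, fragments per kilobase of transcript scaled to the size of the library, a unit that takes transcript length into account and so lets the levels of different genes be set side by side.

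RNA came from BAT of GHRH-KO mice, in which the Ghrh gene is disrupted throughout the body, and of wild type (WT) littermates, all of 1 mixed C57BL6 and 129SV colony and fed Lab Diet 5001 chow. By the labels there were 3 WT females (WT_F), 2 KO females (KO_F), 2 WT males (WT_M) and 2 KO males (KO_M), 1 library from each, and the ages of the mice were not given in the sources used here. No group was treated, and the knockout, a targeted disruption of Ghrh, was taken to be present from conception and in the whole body. Each library is a separate mouse, and the p-values measure the spread between these few animals.

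Proline is oxidised in mitochondria in 2 steps. Proline dehydrogenase (Prodh) passes its electrons to the respiratory chain, and Aldh4a1 turns the product into glutamate. The way back starts with Aldh18a1, which reduces glutamate, and ends with Pycr1, which makes proline, while Oat feeds the same intermediate from ornithine. Glutamate dehydrogenase (Glud1) links glutamate to the citric acid cycle, glutamine synthetase (Glul) binds ammonia to glutamate, and the cytosolic aspartate aminotransferase Got1 works in the malate-aspartate shuttle, which carries reducing power from cytosol to mitochondria. BAT burns fuel to make heat, and amino acids are among its fuels.

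The libraries were checked before the enzymes were compared. Ghrh, the targeted gene, was at 0 FPKM in all 5 WT libraries. It was at 0.846, 0.233, 0.799 and 0.470 FPKM in KO_F 1, KO_F 2, KO_M 1 and KO_M 2. Its fragments were thus found only in libraries labelled KO. A gene-level value does not show which part of the gene the fragments came from, so KO and WT are used below for libraries labelled KO and WT, and every direction is that of the labels. Ghr, the growth hormone receptor, ran from 42.2 to 51.6 FPKM in libraries labelled KO and from 62.8 to 155.2 FPKM in those labelled WT, an averaged difference of -0.98 ± 0.24 (log2, limma adjusted p = 0.0660). Whether the Ghrh fragments came from the targeted allele, or whether genotype labels were exchanged, was not tested. The brown adipocyte marker Ucp1 stood at 1357 to 2992 FPKM in the 9 libraries, and Xist and Ddx3y matched the labelled sex in every library. Skeletal muscle markers were present in all of them: the sum of 12 such genes ran from 449 to 2404 FPKM in libraries labelled WT and from 2780 to 12715 FPKM in libraries labelled KO. The white adipocyte sum was 86.6 to 344 FPKM in WT and 39.5 to 95.9 FPKM in KO. Retn was a large part of this sum, at 56.3 to 287 FPKM in WT and 31.4 to 85.2 FPKM in KO, and these ranges overlapped. Leptin (Lep), a smaller part, was at 5.44 to 23.0 FPKM in WT and at 0.580 to 2.66 FPKM in KO. KO_M 1 stood apart, with rank correlations of 0.924 to 0.934 to the other libraries, against 0.958 to 0.991 among those 8, and with a lymphocyte marker sum of 202.6 FPKM against 1.86 to 4.14 FPKM elsewhere. Its macrophage sum was 550.5 FPKM against 43.1 to 164.6 FPKM, and its dividing cell sum 6.71 FPKM against 0.195 to 1.16 FPKM. In such bulk tissue, fewer cells of a type and less RNA per cell cannot be told apart.

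The levels of the 8 enzymes spanned almost the whole range of the tissue. Glul had the highest mean, 911 ± 261 FPKM (SD, n = 9 libraries), a level at or above that of 99.6% of the genes tested, and it was followed by Glud1 at 86.0 ± 12.1 FPKM and Aldh4a1 at 51.8 ± 8.59 FPKM. Oat stood at 31.7 ± 2.97 FPKM, and Prodh and Got1 lay next to each other at 18.7 ± 5.96 and 18.5 ± 9.86 FPKM, levels that do not differ beyond their spread. The enzymes of proline synthesis were at the bottom, Aldh18a1 at 0.939 ± 0.716 FPKM and Pycr1 at 0.113 ± 0.0576 FPKM. Proline breakdown was thus represented by far more RNA than proline synthesis in each of the 9 libraries. Pycrl, a relative of Pycr1 that also makes proline and that was named here after its values were seen, ran from 14.7 to 20.5 FPKM, far above Pycr1.

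**Figure D1:**
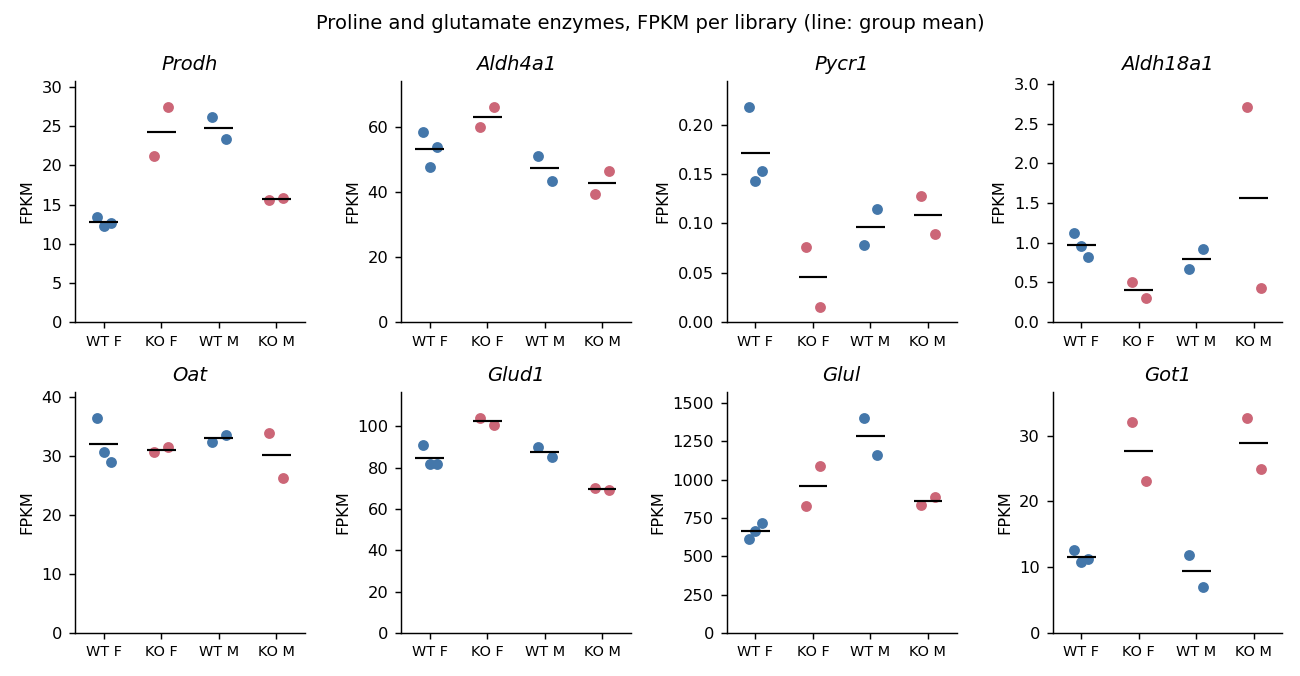
FPKM (linear axis from 0, a separate scale for each gene) of the 8 enzymes in each library, with 1 point per mouse and a line at the group mean. Blue points are libraries labelled WT and red points libraries labelled KO. For Prodh and Glul, KO_F lies above WT_F and KO_M below WT_M, whereas for Got1 both KO groups lie above both WT groups.

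Prodh, the enzyme that starts proline breakdown, differed in opposite directions in the sexes. Its gene lies on the minus strand at chr16:18060357-18090203 (GRCm38, the build also called mm10), where it overlaps Dgcr6 on the opposite strand. Dgcr6 ran from 36.6 to 50.7 FPKM, and since the counting was not stated to use strand, fragments in the overlap cannot be assigned to either gene. Prodh stood at 13.5, 12.2 and 12.7 FPKM in WT_F and at 21.2 and 27.5 FPKM in KO_F. In males the order was turned around, with 26.2 and 23.4 FPKM in WT_M and 15.6 and 15.9 FPKM in KO_M. The groups overlapped in neither sex, and KO_F and WT_M reached much the same level. The difference KO minus WT was 0.92 ± 0.13 (SE) on the log2 scale in females (limma, Benjamini-Hochberg adjusted p = 0.0786), against -0.65 ± 0.14 for the males (limma adjusted p = 0.0896), so that neither passed the threshold of 0.05. Averaged over the sexes the difference was 0.13 ± 0.09 (limma adjusted p = 0.502). The difference between the male and the female difference, the interaction of genotype and sex, was -1.57 ± 0.19 and had an adjusted p of 0.438 in limma, and no gene had a lower adjusted p in that contrast.

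The same values can be read as a sex difference. Chosen after the group values were seen, the contrast of males with females gave 0.95 ± 0.13 (log2) for Prodh in WT (limma adjusted p = 0.152) and -0.62 ± 0.14 in KO (limma adjusted p = 0.344). Prodh thus had higher values in males among libraries labelled WT and lower values in males among those labelled KO, without passing the threshold in either. In these contrasts 0.00681% of the genes tested passed in WT and 0.00681% in KO, and none of the 8 enzymes was among them.

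The promoter of Prodh is shown because growth hormone acts on its target genes through the transcription factor Stat5. Stat5 binds a short palindrome with the letters TTCNNNGAA, called a GAS element, and Prodh and Aldh18a1 were the only members that hold it in the 300 bases from 250 before to 50 after the RefSeq start site, which for Prodh lies inside the span above. Both are printed 5′ to 3′ on the minus strand with the matches in capitals.
Prodh (chr16:18089141-18089440): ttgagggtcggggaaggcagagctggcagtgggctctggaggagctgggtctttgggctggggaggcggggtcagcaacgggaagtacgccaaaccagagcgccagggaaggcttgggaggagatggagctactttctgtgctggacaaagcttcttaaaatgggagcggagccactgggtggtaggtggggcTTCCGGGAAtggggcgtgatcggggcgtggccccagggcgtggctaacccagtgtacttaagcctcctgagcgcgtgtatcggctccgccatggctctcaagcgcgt
Aldh18a1 (chr19:40588414-40588713): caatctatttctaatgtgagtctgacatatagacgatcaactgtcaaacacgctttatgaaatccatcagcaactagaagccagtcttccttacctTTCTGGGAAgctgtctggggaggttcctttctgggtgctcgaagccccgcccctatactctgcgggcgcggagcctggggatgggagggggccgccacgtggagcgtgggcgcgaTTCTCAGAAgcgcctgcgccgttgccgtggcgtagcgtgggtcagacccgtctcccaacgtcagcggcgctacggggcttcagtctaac
The match in Prodh lies at -57 to -49 from the start site, and those in Aldh18a1 at -154 to -146 and at -39 to -31. Of the 32851 mouse promoters of this length searched on both strands, 8.30% hold this motif, so a match is not rare, and whether Stat5 binds at any of them was not measured.

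Aldh4a1, which completes proline breakdown by making glutamate, was abundant and varied little. The gene lies on the plus strand at chr4:139622866-139649690. Its RNA stood at 58.3, 47.7 and 53.7 FPKM in WT_F against 59.97 and 66.1 FPKM in KO_F, and at 51.1 and 43.4 FPKM in WT_M against 39.4 and 46.3 FPKM in KO_M. KO_F lay just above WT_F, and the male groups overlapped. In females KO minus WT came to 0.25 ± 0.13 on the log2 scale (limma adjusted p = 0.461), beside -0.14 ± 0.14 in the males (adjusted p = 0.688). Of the distinct 50-base stretches of its transcripts, 30.0% are also in the overlapping gene Gm21969 of the same strand, so part of its fragments may have been shared.

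Of the enzymes of proline synthesis, Pycr1, which makes proline in the last step, was measured near the limit of the method. Its gene lies on the minus strand at chr11:120635712-120643769. Pycr1 stood at 0.218, 0.143 and 0.153 FPKM in WT_F and at 0.0762 and 0.0150 FPKM in KO_F. In males the values were 0.0782 and 0.115 FPKM in WT_M and 0.128 and 0.0895 FPKM in KO_M. KO_F lay below WT_F with no overlap, while the male groups overlapped. Female libraries labelled KO differed from those labelled WT by -2.32 ± 0.71 on the log2 scale (limma adjusted p = 0.260), while for the males the value was 0.17 ± 0.78 (adjusted p = 0.945). From the step between the lowest FPKM values, these Pycr1 values were estimated to rest on only 0.62 to 9.24 fragments a library, with the lowest in KO_F 2, so the fold in females rests on a handful of fragments and was not resolved at this depth.

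Aldh18a1, which opens proline synthesis by reducing glutamate, was low but measurable, and 1 library set its male mean. The gene lies on the minus strand at chr19:40550257-40588463. Aldh18a1 stood at 1.118, 0.960 and 0.821 FPKM in WT_F and at 0.511 and 0.306 FPKM in KO_F. In WT_M the values were 0.673 and 0.921 FPKM, and in KO_M they were 2.71 and 0.428 FPKM. KO_F lay below WT_F, KO_M 2 lay below WT_M, and KO_M 1 lay above every other library. On the log2 scale, KO minus WT was -1.28 ± 0.69 for females (limma adjusted p = 0.482), and for males it was 0.45 ± 0.76 (adjusted p = 0.826). Without KO_M 1, the library with the high lymphocyte, macrophage and dividing cell markers, the male difference was -0.88, and without KO_M 2 it was 1.78. The genes with a profile most like that of Aldh18a1 over the 9 libraries were H2-T23, Csf1r, a receptor of macrophages, and Samhd1, with root mean square differences of 0.205, 0.223 and 0.239 (log2), against a spread of 0.859 of Aldh18a1 itself. In KO_M 1 these stood at 46.1, 18.4 and 21.2 FPKM, and in the other 8 libraries at 5.78 to 16.5, 2.25 to 5.81 and 3.37 to 8.21 FPKM. The part of other cell types in the Aldh18a1 values was not tested.

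The balance of breakdown to synthesis was taken in each library as the mean log2 FPKM of Prodh and Aldh4a1 minus that of Pycr1 and Aldh18a1, a quantity that does not depend on how a library was scaled. It was 5.83, 6.03 and 6.20 in WT_F and 7.50 and 9.30 in KO_F, so that both KO_F libraries lay above those of WT_F. In males it was 7.32 and 6.61 in WT_M and 5.39 and 7.11 in KO_M, and those groups overlapped. The mean difference KO minus WT was 2.38 in females and -0.71 in males, against a pooled SD between libraries of a group of 0.827. No test was run on this score. In females it was 1.48 without KO_F 2 and 3.28 without KO_F 1, and with 1 added to each FPKM before the logarithm, which damps the low Pycr1 values, it came to 0.88. In males it was 0.15 without KO_M 1 and -1.57 without KO_M 2, so its direction there rested on single libraries.

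Both sides contributed to the female difference. The mean log2 FPKM of the breakdown enzymes was 4.81, 4.60 and 4.70 in WT_F and 5.16 and 5.41 in KO_F, while that of the synthesis enzymes was -1.02, -1.43 and -1.49 in WT_F and -2.34 and -3.88 in KO_F. The synthesis side differed more on this scale, and it is the side that was measured on few fragments. Marker sums of other cell types were also lower in KO_F: macrophage markers at 43.1 to 54.2 FPKM against 85.1 to 131 FPKM in WT_F, fibroblast and progenitor markers at 113 to 121 FPKM against 173.5 to 263 FPKM, and dividing cell markers at 0.195 to 0.222 FPKM against 0.556 to 1.16 FPKM. All 8 macrophage, 7 fibroblast and 5 dividing cell markers tested had negative values in females, and averaged over the sexes 3 of the 7 fibroblast markers (Col1a1, Col3a1 and Lum) and 1 of the 8 macrophage markers (Cd163) passed the test, all lower in KO. The part of these cells in the lower Pycr1 and Aldh18a1 values was not tested. The ratio of the better measured pair, Prodh to Aldh18a1, was 12.1, 12.8 and 15.4 in WT_F and 41.4 and 89.7 in KO_F. In males this ratio was 38.9 and 25.4 in WT_M and 5.74 and 37.2 in KO_M, with the low value in KO_M 1.

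**Figure D2:**
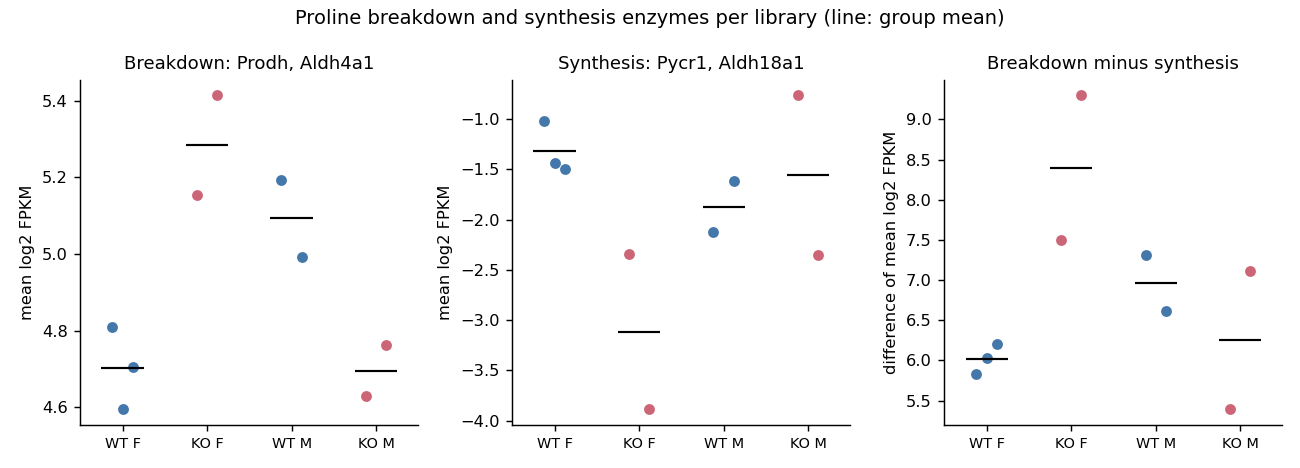
Mean log2 FPKM of the breakdown enzymes (left) and the synthesis enzymes (middle), and their difference (right), with 1 point per library and a line at the group mean. The axes do not start at 0 and differ in range. KO_F lies above WT_F on the left and below it in the middle, which gives the difference of 2.38 on the right, while the 2 KO_M points lie on either side of the WT_M points for synthesis.

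Oat, which joins ornithine and arginine to the proline pathway, was the steadiest of the 8 genes. The gene is on the minus strand at chr7:132557478-132576398, next to and partly overlapping Fgfr2, which was at 0.475 to 1.46 FPKM. Its RNA stood at 36.6, 30.7 and 29.1 FPKM in WT_F against 30.7 and 31.5 FPKM in KO_F, and at 32.4 and 33.7 FPKM in WT_M against 34.0 and 26.4 FPKM in KO_M. The groups overlapped in both sexes, and the highest library was only 1.39 times the lowest. In females KO minus WT came to -0.04 ± 0.14 on the log2 scale (limma adjusted p = 0.938), beside -0.14 ± 0.15 in the males (adjusted p = 0.707).

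Glud1, through which glutamate enters the citric acid cycle, had the pattern of Prodh with a smaller size. The gene lies on the plus strand at chr14:34310727-34345265. Glud1 stood at 91.1, 81.7 and 82.0 FPKM in WT_F and at 104.3 and 100.7 FPKM in KO_F. In males it was at 90.2 and 85.1 FPKM in WT_M and at 70.0 and 69.1 FPKM in KO_M. The KO libraries lay above all WT libraries in females and below both in males. Female libraries labelled KO differed from those labelled WT by 0.27 ± 0.08 on the log2 scale (limma adjusted p = 0.245), while for the males the value was -0.33 ± 0.09 (adjusted p = 0.119), and the interaction was -0.61 ± 0.12 (limma adjusted p = 0.614). Between the sexes, the male minus female value of Glud1 was 0.05 ± 0.08 in WT (limma adjusted p = 0.972) and -0.56 ± 0.09 in KO (limma adjusted p = 0.300).

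Glul, which makes glutamine from glutamate and ammonia, was the most abundant member in every library. The gene lies on the plus strand at chr1:153899944-153909723. Glul stood at 610.9, 664 and 717 FPKM in WT_F and at 826 and 1093 FPKM in KO_F. In males it was at 1406 and 1160 FPKM in WT_M and at 832 and 888 FPKM in KO_M. Again the KO libraries lay above WT in females and below WT in males without overlap. On the log2 scale, KO minus WT was 0.52 ± 0.15 for females (limma adjusted p = 0.238), and for males it was -0.57 ± 0.16 (adjusted p = 0.136), and the interaction was -1.09 ± 0.22 (limma adjusted p = 0.614). In WT the male minus female difference was 0.95 ± 0.15 (limma adjusted p = 0.158), the same size as for Prodh, and in KO it was -0.15 ± 0.16 (limma adjusted p = 0.742). Other annotated genes share 12.6% of the 50-base stretches of Glul, among them the copy Glns-ps1 and the overlapping Teddm2, and 6.49% of those of Glud1, among them the copy Glud-ps.

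Glul was also the gene whose profile over the 9 libraries was most like that of Prodh. Among 10877 genes with a mean of at least 1 FPKM, its root mean square difference from Prodh was 0.196 (log2), followed by 0.2001 for Tef, a transcription factor with a daily rhythm, and 0.210 for Gin1, while the spread of Prodh itself was 0.432. Tef ran from 25.3 to 29.1 FPKM in WT_F, was at 40.1 and 42.8 FPKM in KO_F, at 48.5 and 33.9 FPKM in WT_M and at 31.9 and 27.9 FPKM in KO_M. The time of day at which tissue was taken was not given in the sources used here. For Aldh4a1 the most alike gene was Bckdhb, a subunit of the enzyme that commits branched-chain amino acids to breakdown, with a difference of 0.0892 against a spread of 0.226. Chchd7 and Bloc1s4 followed at 0.0898 and 0.0902. Pycr1 had no close match, with 0.596 for Tmem45a, 0.596 for Pmepa1 and 0.634 for Srpx against a spread of 1.04.

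Got1, the cytosolic aspartate aminotransferase, was the only member that passed the test. The gene lies on the minus strand at chr19:43499752-43524605. Got1 stood at 12.6, 10.8 and 11.2 FPKM in WT_F and at 32.1 and 23.2 FPKM in KO_F. In males it was at 11.9 and 6.90 FPKM in WT_M and at 32.7 and 24.99 FPKM in KO_M. All 4 libraries labelled KO lay above all 5 labelled WT, with means of 28.3 ± 4.88 (SD, n = 4) and 10.7 ± 2.22 FPKM (SD, n = 5). Averaged over the sexes, Got1 rose by 1.45 ± 0.19 (SE) on the log2 scale (limma adjusted p = 0.0235), and the exact permutation test within sexes gave p = 0.0167, the smallest that its 60 arrangements can give. Taken by sex, Got1 differed by 1.24 ± 0.25 among females (limma adjusted p = 0.141), and by 1.66 ± 0.27 among males (adjusted p = 0.0715), and the interaction of 0.42 ± 0.37 did not pass (limma adjusted p = 0.783). The averaged call was lost when any 1 of the 3 WT_F libraries was left out. It was also lost with limma run without the mean-variance trend (adjusted p = 0.0535) or with the ordinary linear model (adjusted p = 0.0899). Leaving out a library of another group leaves 1 library in that group, and calls from those fits are not given. Under all settings, these fits included, the averaged Got1 difference stayed between 1.26 and 1.65.

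**Figure D3:**
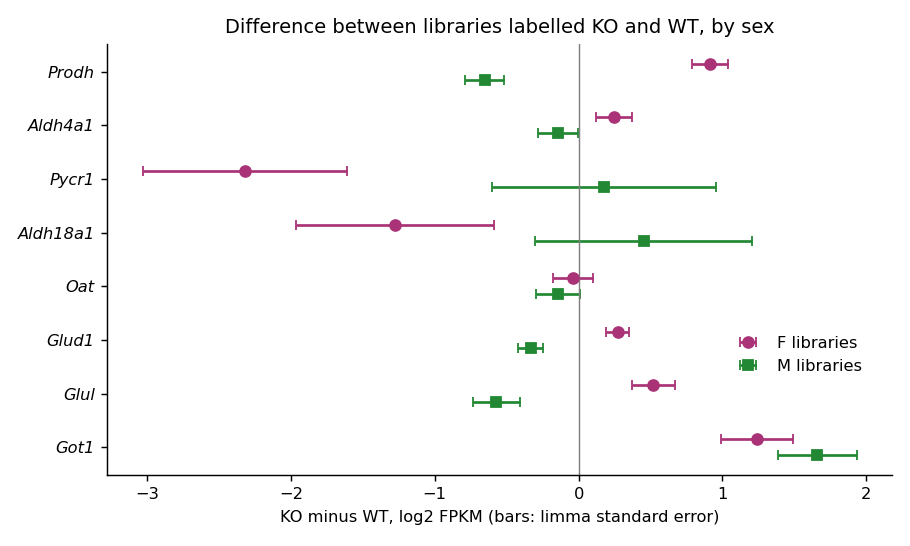
Difference KO minus WT in log2 FPKM for each enzyme (horizontal axis), in females (circles) and males (squares), with bars of 1 limma standard error. Prodh, Glud1 and Glul have positive values in females and negative values in males, Got1 is at 1.24 and 1.66, and Pycr1 and Aldh18a1 have the widest bars.

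The promoters of Got1 and Pycr1 each held the element TGATGNAA, to which the factor Atf4 binds when amino acids are scarce, and 3.97% of all promoters searched hold it. They are printed 5′ to 3′ on the minus strand with the matches in capitals.
Got1 (chr19:43524556-43524855): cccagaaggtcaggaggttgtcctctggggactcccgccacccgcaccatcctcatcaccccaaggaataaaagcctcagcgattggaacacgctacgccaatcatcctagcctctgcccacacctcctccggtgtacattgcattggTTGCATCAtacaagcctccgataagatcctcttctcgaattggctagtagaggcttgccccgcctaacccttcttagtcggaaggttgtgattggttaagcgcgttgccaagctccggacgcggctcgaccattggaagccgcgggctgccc
Pycr1 (chr11:120643699-120643998): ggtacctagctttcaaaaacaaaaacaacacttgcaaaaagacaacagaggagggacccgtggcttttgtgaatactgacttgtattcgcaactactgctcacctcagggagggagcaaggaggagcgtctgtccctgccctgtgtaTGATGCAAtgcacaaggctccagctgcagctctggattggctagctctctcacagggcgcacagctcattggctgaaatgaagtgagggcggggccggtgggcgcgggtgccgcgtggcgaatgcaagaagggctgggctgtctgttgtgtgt
The match lies at -102 to -95 in Got1, where it reads on the opposite strand, and at -103 to -96 in Pycr1. These positions are nearly the same. Got1 passed the averaged test, while Pycr1 was measured on too few fragments to be resolved. Whether Atf4 binds at either was not measured. The cyclic AMP element TGACGTCA and the FoxO element TGTTTAC were in none of the 8 promoters, and they are in 1.79% and 3.65% of all promoters searched.

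Among the other genes of the malate-aspartate shuttle, 2 passed the averaged test with Got1, a test that called 3.6% of all genes. Both lay close to the threshold, and they were not followed under the other settings. Over all genes, the 529 averaged calls fell to 34 in limma without the mean-variance trend. The mitochondrial aminotransferase Got2 stood at 29.5, 22.9 and 25.4 FPKM in WT_F, at 41.7 and 28.5 FPKM in KO_F, at 24.7 and 17.9 FPKM in WT_M and at 55.0 and 41.8 FPKM in KO_M. Averaged over the sexes it rose by 0.80 ± 0.16 on the log2 scale (limma adjusted p = 0.0453). The aspartate-glutamate carrier Slc25a12 stood at 6.97, 4.36 and 3.86 FPKM in WT_F, at 14.6 and 7.68 FPKM in KO_F, at 6.20 and 2.94 FPKM in WT_M and at 23.3 and 12.8 FPKM in KO_M. It rose by 1.56 ± 0.33 on the log2 scale (limma adjusted p = 0.0493). For Got2 the female groups overlapped, with KO_F 2 below WT_F 1, and for Slc25a12 the KO and WT libraries did not overlap in either sex. The other aspartate-glutamate carrier, Slc25a13, ran from 0.118 to 0.274 FPKM and did not pass, at 0.20 ± 0.33 averaged (limma adjusted p = 0.825). Nor did the malate side of the shuttle, looked up after these values were seen: the averaged differences were 0.02 ± 0.08 for the cytosolic malate dehydrogenase Mdh1, -0.02 ± 0.07 for the mitochondrial Mdh2 and 0.03 ± 0.07 for the carrier Slc25a11.

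Markers of skeletal muscle, a tissue that uses this shuttle heavily, were found in every library, and they moved with these 3 genes. All 12 muscle markers had positive values averaged over the sexes, with a median of 2.28 on the log2 scale, and 3 of the 12 passed the test, all higher in KO. Acta1, the actin of skeletal muscle, ran from 96.3 to 618 FPKM in WT and from 784 to 2693 FPKM in KO. The order of the libraries by Slc25a12 was close to their order by the muscle sum, as the plot of the 3 genes against that sum shows. For Got1, the pair of libraries with the nearest muscle sums across the genotypes were WT_F 1 and KO_F 2, at 2404 and 2780 FPKM, and Got1 was at 12.6 and 23.2 FPKM in these, whereas Got2 was at 29.5 and 28.5 FPKM and Slc25a12 at 6.97 and 7.68 FPKM. This pair is 1 library of each genotype. Within WT, Got1 was at 6.90 FPKM at the lowest muscle sum, 449 FPKM, and at 12.6 FPKM at the highest, 2404 FPKM. Within KO it was at 23.2 FPKM at the lowest sum, 2780 FPKM, and at 32.7 FPKM at the highest, 12715 FPKM. Whether any of the Got1, Got2 and Slc25a12 differences came from muscle RNA, and how much, was not tested.

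**Figure D4:**
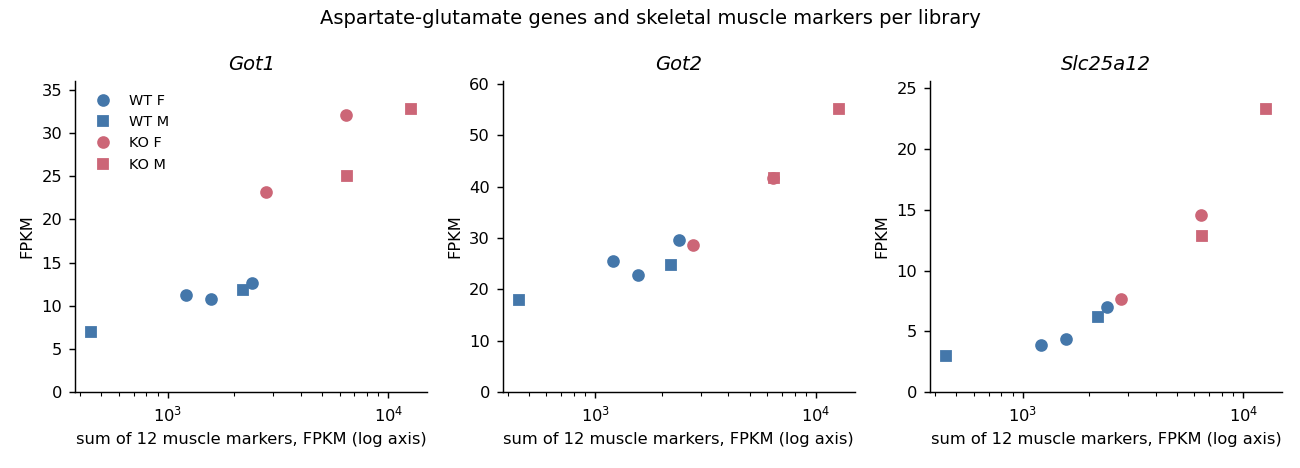
FPKM of Got1, Got2 and Slc25a12 (linear axes from 0) against the summed FPKM of 12 skeletal muscle markers (log axis), with 1 point per library, circles for females and squares for males, blue for WT and red for KO. Slc25a12 and Got2 follow the muscle sum across genotypes, and near a sum of 2404 to 2780 FPKM Got1 is at 23.2 in a KO library and at 12.6 in a WT library. Within each genotype, Got1 is lowest in the library with the lowest muscle sum and highest in that with the highest.

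Counted over the 8 enzymes, none passed in females, none in males, 1 (Got1) passed averaged over the sexes and none in the interaction, at a limma adjusted p under 0.05. The same rule called 0.0204% of all genes tested in females, 0.0136% in males, 3.6% averaged over the sexes and 0% in the interaction, in which 1028 genes, 4 of the 8 enzymes among them, had an unadjusted limma p under 0.05. The median difference of the 8 enzymes was 0.26 (log2) in females and -0.14 in males, beside -0.07 and -0.08 for all genes tested. With the ordinary linear model of the methods, at an unadjusted p under 0.01, Prodh, Glud1 and Got1 passed in females, the same 3 passed in males, Got1 passed averaged over the sexes, and Prodh, Glud1 and Glul passed in the interaction. That rule called 3.43% of all genes in females, 5.29% in males, 7.54% averaged and 1.66% in the interaction. At an adjusted p under 0.05 the linear model called none of the 8 in any of the 4 contrasts, and 0.00681% of all genes in females, 0% in males, 0.129% averaged and 0% in the interaction. At an unadjusted p under 0.01 limma called 3 of the 8 in females (Prodh, Glul and Got1), 4 in males (these and Glud1), Got1 averaged and 3 in the interaction (Prodh, Glud1 and Glul), beside 4.11%, 6.97%, 9.6% and 1.57% of all genes.

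Separation of the groups was common in these data and so says little alone. Of all genes tested, 40.4% had no overlap between KO and WT in females and 39.4% in males, beside 7 and 4 of the 8 enzymes. KO libraries lay above WT in females and below WT in males, with no overlap in either, for 2.58% of all genes, and for Prodh, Glud1 and Glul among the 8. They lay above WT in both sexes for 4.27% of all genes, and of the 8 for Got1. The opposite order in the sexes was not particular to Prodh, Glud1 and Glul. Among related genes, named here after their values were seen, Bcat2 had it without overlap, at 0.63 (log2) in females and -0.44 in males. So did Oplah, at 0.285 and -0.455, and Pepd, at 0.60 and -0.18, and none of these passed in any contrast. The Prodh, Glud1 and Glul differences did not rest on KO_M 1: without that library the male values were -0.64, -0.34 and -0.52 (log2), beside -0.65, -0.33 and -0.57 with it. The summed brown adipocyte markers were 8086 to 8274 FPKM in KO_F against 6547 to 7834 FPKM in WT_F, and 6393 to 6474 FPKM in KO_M against 6016 to 6345 FPKM in WT_M. Ucp1 is a large part of this sum, and the single markers were mixed in males, where 5 of the 9 had values below 0 and the median was -0.11 (log2), while in females 7 of the 9 were above 0 with a median of 0.20. None of the 9 passed in either sex.

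The other genes of proline metabolism gave no call. Of 12 further genes of proline and hydroxyproline metabolism, 10 could be tested and none passed in any of the contrasts. Prodh2, a relative of Prodh that acts on hydroxyproline, was at 0 FPKM in all libraries. Pepd, which frees proline from dipeptides, stood at 22.1, 22.7 and 22.2 FPKM in WT_F and at 28.5 and 40.4 FPKM in KO_F, a difference of 0.60 ± 0.14 (log2, limma adjusted p = 0.168). Hoga1, which acts late in hydroxyproline breakdown, stood at 0.760, 0.683 and 0.706 FPKM in WT_F and at 1.199 and 1.65 FPKM in KO_F, a difference of 0.98 ± 0.23 (limma adjusted p = 0.169). Both KO_F groups lay above WT_F without overlap, as for Prodh. Pepd was at 29.98 and 31.5 FPKM in WT_M and at 26.6 and 27.7 FPKM in KO_M, where KO lay below WT without overlap. That male difference was -0.18 ± 0.15 (log2, limma adjusted p = 0.637). In males the genes with the lowest p were Xpnpep1, an aminopeptidase that cuts before proline, at -0.19 ± 0.10 (limma adjusted p = 0.432), and P3h1, a prolyl hydroxylase of collagen, at -0.37 ± 0.23 (limma adjusted p = 0.499).

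Of 16 genes of arginine, ornithine and polyamine metabolism, 10 could be tested and none passed. The remaining 6, among them the arginases Arg1 and Arg2 and the urea cycle genes Otc and Cps1, were listed at 0 in at least 1 library. Odc1, which turns ornithine into putrescine, differed by 0.32 ± 0.14 (log2) in females (limma adjusted p = 0.400). Spermidine synthase, Srm, differed by -0.26 ± 0.12 in females (limma adjusted p = 0.425), with -0.38 ± 0.13 in males (adjusted p = 0.210). Spermine synthase, Sms, differed by 0.58 ± 0.28 in males (limma adjusted p = 0.355), with 7.88 FPKM in KO_M 1 and 4.23 FPKM in KO_M 2 beside 3.97 and 3.77 FPKM in WT_M.

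Of 34 further genes of glutamate and glutamine metabolism, 29 could be tested, and Got2 and Slc25a12 were the 2 that passed. Both passed averaged over the sexes, where 3.6% of all genes tested passed. The median averaged difference of the 29 was -0.13 (log2), beside -0.07 for all genes, and 10 of the 29 had values above 0. Of 18 genes that Atf4 or amino acid shortage is known to raise, or that belong to that response, 17 could be tested and 1 passed. This was Trib3, a pseudokinase of the stress response, which stood at 2.33, 1.73 and 1.40 FPKM in WT_F, at 5.22 and 4.12 FPKM in KO_F, at 2.02 and 2.64 FPKM in WT_M and at 4.31 and 3.90 FPKM in KO_M. It rose by 1.104 ± 0.18 on the log2 scale averaged over the sexes (limma adjusted p = 0.0347), with no overlap between KO and WT. The median averaged difference of the 17 genes was 0.04, beside -0.07 for all genes.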

How the data were processed

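Per the labels and the methods, poly A+ RNA was sequenced as paired 2 × 50 base reads and aligned to mm10 (GRCm38) with TopHat2 version 2.0.11 and Bowtie. The annotation and the settings used for quantification are not given in the sources used here. The authors deposited 1 table of FPKM per library. FPKM sums ran from 380558 to 443569, and the step between the lowest values gave an estimated 23000000 to 28500000 fragments a library. This depth is an estimate, since no read counts were used here.

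Genes above 0 FPKM in all 9 libraries (14675) were put on the log2 scale with no pseudocount. A mean was fitted per genotype and sex with limma 3.58.1 in R 4.3.3, with a mean-variance trend, and Benjamini-Hochberg adjusted p under 0.05 was called. Contrasts were KO minus WT in females, in males and averaged, and their interaction. Single members were also tested with an exact two-sided permutation test within the sexes. The methods' own linear model was run as an alternative, next to other pseudocounts, filters, scalings, variance estimates and leaving out each library. The contrasts between the sexes, the matched thresholds, the other shuttle genes, the counts of groups without overlap and the fragment estimate were added after the values were seen. The limma step was tested on simulated data.

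The members and the gene lists were chosen with earlier results of these data known. Named from the lists were genes that passed in any contrast or, in lists with none, the 2 lowest p values in females and in males. Pycrl, Prodh2, Dgcr6, Fgfr2, Bcat2 and Oplah were named outside that rule. Gene positions are from GENCODE M21, in which 14069 of the 14675 symbols were found, and promoters are from RefSeq (GRCm38.p6).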

Additional observations from a re-analysis of the deposited data

Results flagged for a closer look

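Aldh18a1 in KO_M 1, at 2.71 FPKM, stood far above the other 3 libraries labelled KO: its gap to the nearest was 0.915 of their whole range, above Dixon's 95% critical value for 4 samples. Chance flags about 1 in 20 such groups, and 18 groups were looked at. The same library had a lymphocyte marker sum of 202.6 FPKM against at most 4.14 FPKM elsewhere, and the part of this in its Aldh18a1 value was not tested.

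For 3 enzymes, and for 2.58% of all genes tested, every library labelled KO lay above WT in females and below WT in males. The male minus the female difference was -1.57 (log2) for Prodh, -1.09 for Glul and -0.61 for Glud1. This interaction was tested with limma and passed for none of them, with adjusted p of 0.438, 0.614 and 0.614.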

How the results depend on the processing

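With 2 or 3 mice a group, calls within a sex were at the limit of what could be resolved, and Pycr1 rested on under 10 estimated fragments a library. The linear model of the methods at an unadjusted p under 0.01 gave 3 members in females, 3 in males and 3 in the interaction, where limma at an adjusted p under 0.05 gave 0. Further checks, chosen after seeing the data, separated model and threshold: limma at an unadjusted p under 0.01 gave 3, 4 and 3, and the linear model at an adjusted p under 0.05 gave 0 in these and 0 averaged. Limma with array weights gave 2 in females (Prodh, Got1), where it called 372 of all 14675 genes tested. Limma without the trend gave 0 averaged over the sexes, where it called 34 genes. On leaving out each WT_F library in turn, the count was 0 in every contrast. Leaving out a library of another group leaves 1 library in that group, and the counts of those fits are left out of this tally. The balance of breakdown to synthesis ran from 1.48 to 3.28 in females and from -1.57 to 0.15 in males on leaving out a library, and was 0.88 in females with 1 added to FPKM. Values near 0 changed sign: with median centring Oat in females became 0.069, and Glud1 and Glul averaged became 0.0277 and 0.0328, while quantile normalization gave 0.0024 for Glud1. On leaving out a library, averaged values ran from -0.13 to 0.0754 for Glul, -0.0058 to 0.11 for Aldh4a1 and -1.08 to 0.25 for Aldh18a1. Male values ran from -0.88 to 1.78 for Aldh18a1, -0.10 to 0.45 for Pycr1 and -0.33 to 0.0397 for Oat. Oat in females ran from -0.11 to 0.0571, and its interaction from -0.29 to 0.0797. The cause of these shifts was not tested. The members Pycr1 and Aldh18a1 had no value under the filter of a mean of 1 FPKM. No paired analysis was possible because the labels give no replicate numbers shared between groups.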
